A study of Homo sapiens with 17 samples.

Results

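The 7 genes described here encode inhibitors of the cyclin-dependent kinases (CDKs): CDKN1A, CDKN1B, CDKN1C, CDKN2A, CDKN2B, CDKN2C and CDKN2D. All peaks overlapping the RefSeq span of a gene and 25 kb on either side were taken from 8 lists of protein binding, and CDKN2A and CDKN2B, which lie next to each other, were treated as 1 locus. This gave 6 loci with 189 peaks, called regions below, of 266843 in the 8 lists. The members were chosen by gene name, not by a value in the lists, out of 20033 protein-coding genes. Earlier results of these data were known at that point.

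The cells were Nthy-ORI, an immortalised human line of normal thyroid epithelium, kept without hormone for 24 h. They were then given 10 nM T3, the active thyroid hormone, or the NaOH vehicle. The library labels give 6 h of treatment, and their protocol text allows 24 h as well. Nuclei from 500000 cells per reaction went through CUT&RUN, in which an antibody directs a nuclease to cut the DNA around its target. The antibodies were to TRβ (the thyroid hormone receptor beta), BRG1 (SMARCA4, the ATPase of the SWI/SNF remodelers), ARID1A (a subunit of the BAF form) and PBRM1 (a subunit of the PBAF form). An antibody in 1 condition was represented by 2 libraries and by 1 list of the peaks that both contained, which gives 8 lists. The 1 IgG library was not analysed here.

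CDK inhibitors slow the cell cycle by holding back kinases that drive it. The INK4 proteins p16 (CDKN2A), p15 (CDKN2B), p18 (CDKN2C) and p19 (CDKN2D) bind CDK4 and CDK6 and keep D-type cyclins from activating them, and CDKN2A also encodes ARF, a regulator of the p53 pathway. The CIP/KIP proteins p21 (CDKN1A), p27 (CDKN1B) and p57 (CDKN1C) bind complexes of cyclins with several CDKs. TRβ can sit on DNA with or without hormone, and SWI/SNF complexes move or evict nucleosomes there.

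With T3, 5 of the 6 loci held a TRβ region, all except CDKN2C, and with vehicle only CDKN1B did. PBRM1 regions lay at 2 loci with vehicle, CDKN2C and CDKN2D, and at all 6 with T3. BRG1 and ARID1A regions were at all 6 loci in both conditions. The lists differ in length (TRβ 1412 with vehicle and 7208 with T3, BRG1 64299 and 55938, ARID1A 49021 and 41710, PBRM1 9115 and 38140), so each count is read below against the share over the whole list. With 1 list per combination no test between conditions was possible, the read depth is unknown, and agreement between the 2 libraries of a list may be technical. A region missing from a list does not show that the protein was absent, and weaker binding in each cell cannot be told apart from binding in fewer cells.

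The start sites of these genes are shown first, because several TRβ regions lay on them or just downstream. Each sequence runs 5′ to 3′ on the strand of its gene, from 250 bases before to 50 bases after an annotated start site, taken from RefSeq (GRCh38.p14). Capitals mark the bases inside a TRβ region of the T3 list. The promoters of CDKN1A and CDKN2B were met at their downstream end, with 85 and 96 of 300 bases inside a region. Those of CDKN2D and of CDKN2B-AS1, the antisense RNA that starts within CDKN2A, lay wholly inside one. The middle annotated start of CDKN2C, which no TRβ region met, is shown for contrast because regions of all 3 remodelers, in both conditions, overlapped it.
CDKN1A, chr6:36678464-36678763, plus strand: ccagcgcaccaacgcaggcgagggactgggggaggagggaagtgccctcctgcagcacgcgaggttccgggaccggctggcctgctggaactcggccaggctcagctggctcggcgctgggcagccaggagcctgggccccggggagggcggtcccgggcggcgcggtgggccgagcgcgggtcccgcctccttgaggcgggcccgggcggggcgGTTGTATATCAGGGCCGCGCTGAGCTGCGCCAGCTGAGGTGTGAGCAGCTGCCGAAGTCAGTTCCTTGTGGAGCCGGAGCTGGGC
CDKN2B, chr9:22009256-22009555, minus strand: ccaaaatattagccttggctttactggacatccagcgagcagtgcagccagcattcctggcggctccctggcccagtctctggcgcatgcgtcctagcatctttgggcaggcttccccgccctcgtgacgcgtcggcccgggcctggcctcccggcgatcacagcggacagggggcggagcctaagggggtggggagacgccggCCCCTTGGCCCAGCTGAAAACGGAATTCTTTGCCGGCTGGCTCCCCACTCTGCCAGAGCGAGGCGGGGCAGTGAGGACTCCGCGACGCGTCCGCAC
CDKN2B-AS1, chr9:21994541-21994840, plus strand: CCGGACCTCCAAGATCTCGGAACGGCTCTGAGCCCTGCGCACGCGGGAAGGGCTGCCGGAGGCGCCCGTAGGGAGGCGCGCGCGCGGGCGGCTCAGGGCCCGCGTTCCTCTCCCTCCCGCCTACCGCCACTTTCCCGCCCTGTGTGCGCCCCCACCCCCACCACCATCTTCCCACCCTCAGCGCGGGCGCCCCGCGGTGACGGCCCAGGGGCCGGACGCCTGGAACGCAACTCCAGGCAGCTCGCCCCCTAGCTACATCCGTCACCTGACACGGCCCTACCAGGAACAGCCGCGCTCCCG
CDKN2D, chr19:10568930-10569229, minus strand: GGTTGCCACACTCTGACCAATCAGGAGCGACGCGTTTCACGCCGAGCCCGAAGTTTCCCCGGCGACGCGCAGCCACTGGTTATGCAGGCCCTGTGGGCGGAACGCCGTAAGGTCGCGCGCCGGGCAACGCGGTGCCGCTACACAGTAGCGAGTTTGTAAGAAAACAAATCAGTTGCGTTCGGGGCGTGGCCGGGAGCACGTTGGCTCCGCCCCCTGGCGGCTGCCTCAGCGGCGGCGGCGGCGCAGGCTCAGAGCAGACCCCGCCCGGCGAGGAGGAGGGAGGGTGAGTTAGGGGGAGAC
CDKN2C, chr1:50968456-50968755, plus strand: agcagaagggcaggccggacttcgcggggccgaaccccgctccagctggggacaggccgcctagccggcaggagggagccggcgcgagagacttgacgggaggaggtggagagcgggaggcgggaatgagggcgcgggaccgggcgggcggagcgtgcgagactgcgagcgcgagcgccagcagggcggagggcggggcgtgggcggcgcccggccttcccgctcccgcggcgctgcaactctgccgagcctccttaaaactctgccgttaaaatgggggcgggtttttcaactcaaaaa

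These 5 promoters had 67.3% to 74.3% G and C. The letters AGGTCA, the half-site of nuclear receptor response elements, were in 0 of the 9 promoter entries of the 6 members with an entry, counting both strands, and in 13.8% of the 35116 promoters of the table. The direct repeat of that half-site with 4 bases between, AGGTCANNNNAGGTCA, was in 0 of the 9 and in 0.0199% of all promoters. With position 4 of the half-site free, AGGNCA was in 4 of the 9, in CDKN1A, CDKN1B, CDKN2B and the middle start of CDKN2C, and in 53.2% of all. It includes every AGGTCA. The AP-1 letters TGANTCA were in 0 of the 9 and in 7.71% of all. The GC box GGGCGG was in 7 of the 9 and in 45.0% of all, with 6 matches in the CDKN2C sequence above, 4 in CDKN1A, 3 in CDKN2D and 2 in CDKN2B. The E-box letters CANNTG were in 7 of the 9 and in 68.7% of all. A match describes letters in a window and no match says nothing about the factor.

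The share of all protein-coding genes with a region in the same window sets the scale for these loci. A TRβ region was near 11.1% of all genes with vehicle and 39.3% with T3, compared with 1 and 6 of the 7 inhibitor genes. BRG1 regions were near 82.8% and 79.8% of all genes, ARID1A regions near 79.5% and 76.0%, and the 7 inhibitor genes had both in either condition. PBRM1 regions were near 44.0% of all genes with vehicle and 78.1% with T3, compared with 2 and 7 of the 7. The window of the members had a median of 56411 bp and that of all genes 74130 bp, so the windows of the members were on the median the shorter ones. The 5 loci with TRβ with T3 fell to 3 (CDKN1B, CDKN1C and CDKN2D) at an IDR of at most 0.01, as did the share of all genes, to 25.4%. They fell to 2 (CDKN1B and CDKN2D), and the share to 14.1%, when the T3 list was shortened to the length of the vehicle list by signal value. The IDR, or irreproducible discovery rate, is the estimated rate of peaks that do not repeat between the libraries among those ranked at least as well.

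At the start sites themselves, 6 members had a promoter entry; CDKN1C was the exception. A TRβ region overlapped the promoter of none of them with vehicle, compared with 2.76% of 15842 genes with an entry. With T3 the promoters of CDKN1A, CDKN2B and CDKN2D were overlapped, 3 of 6, compared with 16.3%. All 6 were overlapped by BRG1 regions with vehicle and with T3 (62.9% and 58.1% of all genes) and by ARID1A regions in both conditions (46.5% and 50.9%). PBRM1 regions overlapped 2 of the 6 with vehicle, CDKN2C and CDKN2D, and all 6 with T3, compared with 20.8% and 58.0%. This count over promoters was added after the data had been seen.

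**Figure D1:**
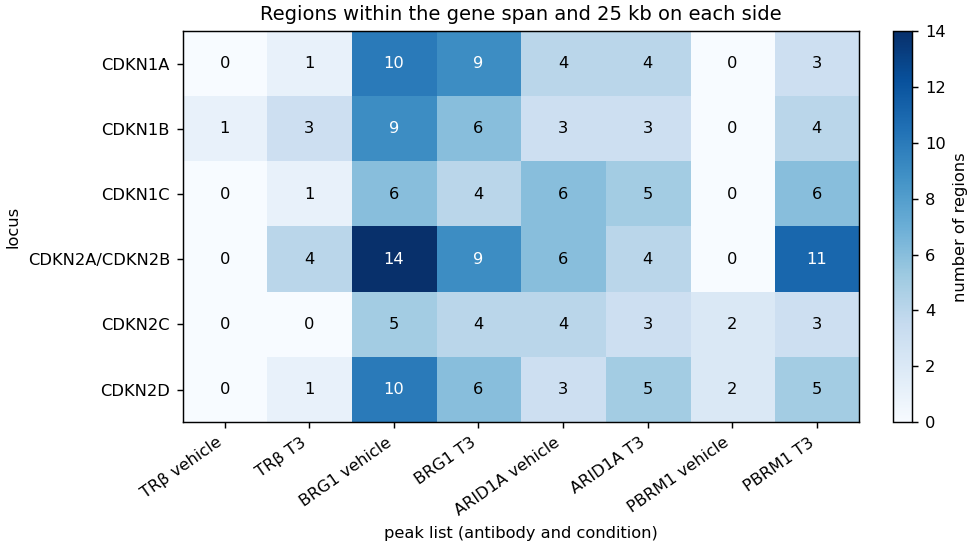
Number of regions in each peak list (columns) at each CDK inhibitor locus (rows), within the gene span and 25 kb on either side. TRβ vehicle and PBRM1 vehicle are the 2 columns with mostly empty rows, and the CDKN2A/CDKN2B row has the highest number in the PBRM1 T3 list, 11.

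Among the CIP/KIP genes, CDKN1A (p21, the inhibitor induced by p53) had 1 TRβ region, found with T3. It lay at chr6:36678679-36679281, with its midpoint 266 bp downstream of the start site at 36678714. The authors' signal value, the sum of the 2 library values, was 10.252, from 6.967 in one library and 3.285 in the other. Within the T3 list it stood at percentile 51.8, and the libraries placed it unequally, at percentiles 77.2 and 5.0. The nearest TRβ region with vehicle was 481.7 kb from the gene.

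Around that site the remodelers covered a wider stretch of CDKN1A. BRG1 covered 3297 bp with vehicle (chr6:36677488-36680784, signal value 26.784) and 3679 bp with T3 (25.414), at percentiles 90.6 and 91.6 of their lists. ARID1A covered 2709 bp with vehicle (18.053, percentile 93.0) and 2348 bp with T3 (26.961, percentile 97.4). PBRM1 had no region within 25 kb of CDKN1A with vehicle, the nearest being 29.2 kb away. With T3 it had 3, of which the start-site region at chr6:36678319-36680763 had a signal value of 17.492, from 12.266 and 5.225. Signal values are not scaled between lists, so these percentiles are positions within each list and show no change.

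Upstream of the gene, on the side of the long noncoding RNAs PANDAR and DINOL, lay most of the remaining CDKN1A sites. Merged over all lists, the locus had 13 sites, the most of the 6, and 5 of them were in 1 list alone. A BRG1 region was in both conditions at 6 of the 13. One upstream site, chr6:36666142-36667699, was in both BRG1 and both ARID1A lists, and its vehicle BRG1 region at chr6:36666924-36667699 had a signal value of 31.249, above the 26.784 at the start site.

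CDKN1B (p27) was the locus with a TRβ region in both conditions. The vehicle region, chr12:12725248-12726142, had a signal value of 13.736 from similar library values of 7.126 and 6.610, and was 453rd of 1412 in its list. Its IDR was 0.0242, so at an IDR of at most 0.01 no locus had TRβ with vehicle, compared with 2.22% of all genes. It lay 2.9 kb above the upper boundary of CDKN1B and covered the upstream annotated start of APOLD1, at 12725917. With T3 a region of 1407 bp overlapped the same place (chr12:12724872-12726278, signal value 13.786), but its library values, 3.827 and 9.959, stood at percentiles 11.1 and 95.4. A second T3 region nearby, chr12:12723943-12724758, was as uneven, with 3.627 and 7.418. Within the gene, the T3 region at chr12:12718834-12719359 had 5.411 and 4.556, percentiles 53.6 and 39.9, with its midpoint 1728 bp downstream of the start site. The 2 T3 regions past the gene lie in the long noncoding RNA LOC105369663 and over the APOLD1 start, so position does not assign them to CDKN1B.

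The regions of BRG1, and of PBRM1 with T3, that covered the CDKN1B start stood high in their lists. They also cover the upper boundary of GPR19, at 12717246. BRG1 covered 6106 bp over the start site with vehicle (chr12:12714222-12720327, signal value 54.811, 343rd of 64299). With T3 it covered 4592 bp there (40.154, 855th of 55938). PBRM1 had no vehicle region within 103.6 kb of the gene, yet its T3 list held a region of 5578 bp over the start (chr12:12714265-12719842) with 43.777, from 14.340 and 29.436, at rank 115 of 38140. A second PBRM1 region past the gene, chr12:12723324-12725735, had 36.789 at rank 288. ARID1A was placed differently with vehicle: its start-site region (chr12:12717001-12717405) had 9.481, percentile 47.6, while chr12:12724570-12726108 past the gene had 24.535, percentile 98.0. Merged over the lists, regions of 7 lists joined into 1 stretch of 13205 bp, chr12:12714064-12727268, the widest of the 53 merged sites, in which PBRM1 with vehicle was the missing list.

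CDKN1C (p57, an imprinted inhibitor) had 1 TRβ region, with T3, at chr11:2884980-2886033. Its signal value was 12.828, with even library values of 6.935 and 5.894 at percentiles 76.7 and 69.7, and its IDR was 0.000819. The midpoint was inside the gene, 269 bp from its upper annotated boundary at 2885775. A vehicle TRβ region lay just outside the window, 26.5 kb from the gene. The same site had BRG1 regions in both conditions (19.835 and 17.190, percentiles 79.2 and 76.4), and PBRM1 with T3 (chr11:2883676-2886023, 27.470, percentile 96.4). ARID1A regions overlapped it as well, 2 with vehicle (10.552 and 9.865, percentiles 60.4 and 51.7) and 1 with T3 (16.788, percentile 83.4). None of the 6 PBRM1 T3 regions of this locus had a vehicle counterpart, and 79.2% of all PBRM1 T3 regions had none either. A further site at chr11:2901022-2902874, nearer to SLC67A1, was in both lists of BRG1 and of ARID1A and in PBRM1 with T3.

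**Figure D2:**
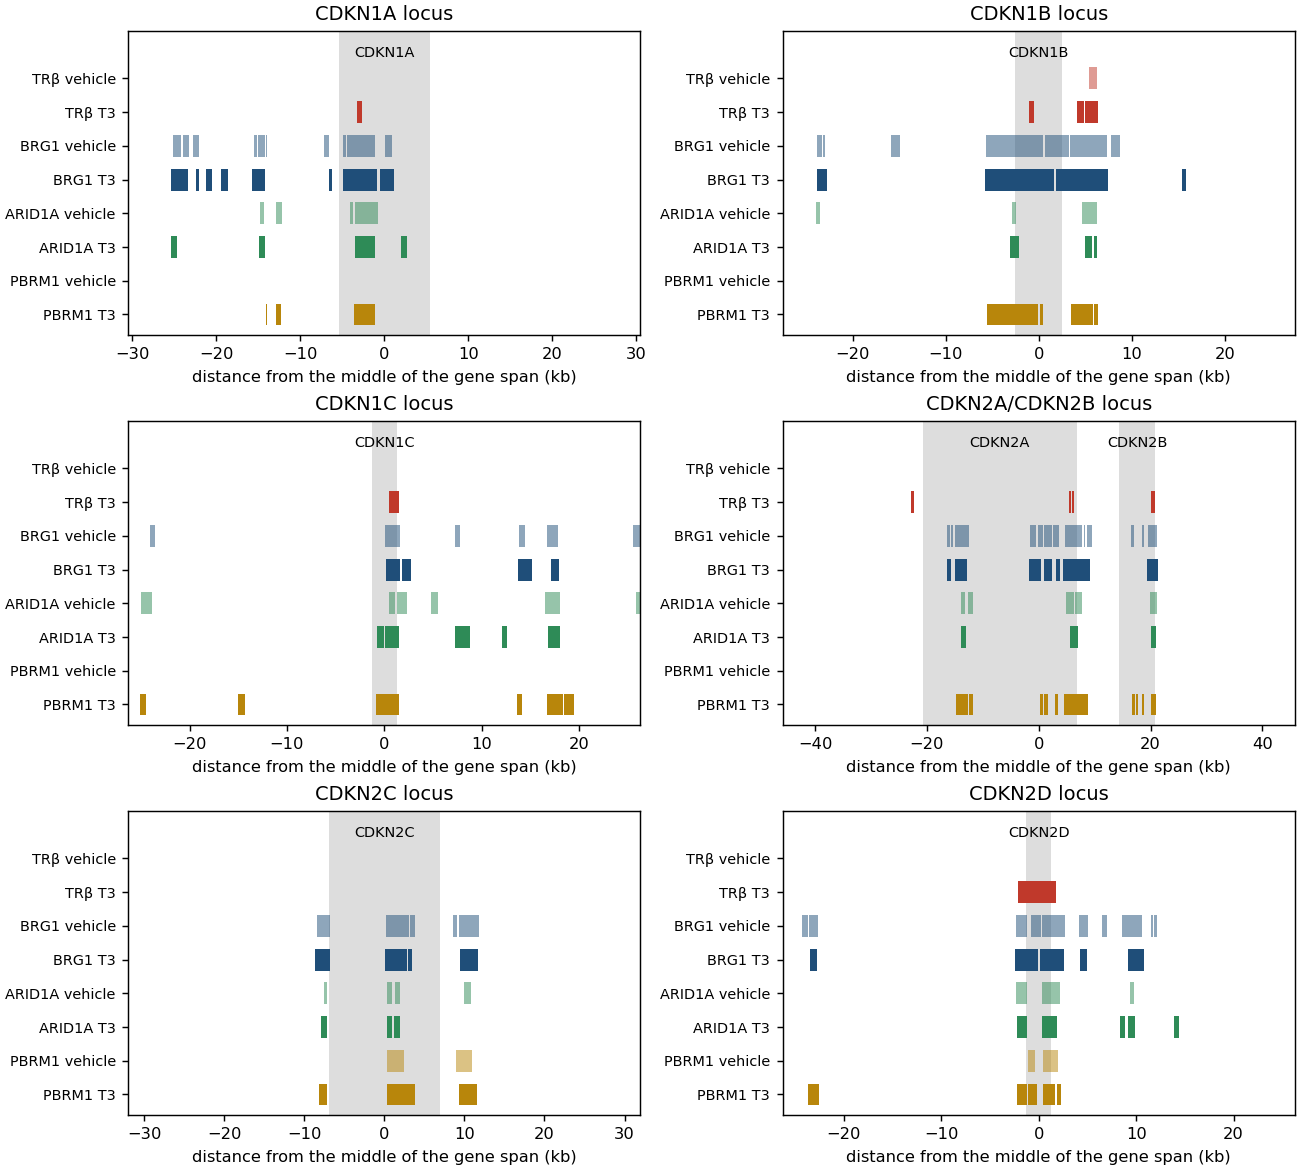
Regions of the 8 lists along each locus, in kb from the middle of the gene span, with pale bars for vehicle, dark bars for T3 and grey for the gene spans. The PBRM1 vehicle row is empty at 4 loci, and the TRβ T3 bars lie above BRG1 and PBRM1 T3 bars except for 1 bar beyond the lower end of CDKN2A.

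Of the INK4 genes, CDKN2A (p16 and ARF) and CDKN2B (p15) had 4 TRβ regions with T3 and none within 2863.0 kb with vehicle. A pair of them lay side by side inside CDKN2A, near its upstream start: chr9:21993878-21994305 (signal value 9.816, from 3.881 and 5.936) and chr9:21994473-21994923 (9.701, from 3.832 and 5.869). Their midpoints were 1233 and 626 bp downstream of the upstream CDKN2A start at 21995324, the start of the ARF transcript. The latter also covers the promoter of CDKN2B-AS1, so position does not assign it to 1 gene. At CDKN2B, chr9:22008697-22009351 had 11.042 from 3.548 and 7.494, with its midpoint 281 bp downstream of the start. The fourth, chr9:21965718-21966129, lay outside the gene, 1829 bp from the lower end of CDKN2A, and had the lowest signal value of the 10 TRβ T3 regions, 9.013. In each of the 4, the same library column held the lower value, at percentiles 5.0 to 18.3, while the other stood at 55.1 to 86.4.

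The start used for p16, at 21974857, had no TRβ region, but it had remodelers. BRG1 covered it with vehicle (chr9:21973618-21976065, signal value 32.339, percentile 94.9) and with T3 (16.824, percentile 75.4). PBRM1 covered it with T3 (chr9:21974293-21975949, 27.045, percentile 96.1). The ARF start had the highest value of the locus in 3 lists: 40.612 for BRG1 with T3 (chr9:21993757-21997763, 810th of 55938), 40.037 for PBRM1 with T3 (chr9:21993008-21997262, 182nd of 38140), and 21.333 for ARID1A with vehicle, percentile 96.3. At the CDKN2B start, PBRM1 with T3 had 17.969 and BRG1 had 21.638 with vehicle and 22.980 with T3. The promoters at the p16, ARF and CDKN2B starts each overlapped BRG1 and ARID1A regions in both conditions and a PBRM1 region with T3. With vehicle, the CDKN2B start itself lay between 2 ARID1A regions. All 11 PBRM1 T3 regions of the locus overlapped the stretch from CDKN2A to CDKN2B, and the nearest vehicle region was 164.1 kb away. None of the 11 had a vehicle counterpart, and over the whole PBRM1 T3 list 79.2% of regions had none.

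CDKN2C (p18) was the locus without TRβ. The nearest TRβ region was 1390.9 kb from the gene with T3 and 1577.5 kb with vehicle. It was nevertheless 1 of the 2 loci with PBRM1 in both conditions. Over the middle annotated start, at 50968706, PBRM1 covered 2137 bp with vehicle (chr1:50967973-50970109, signal value 19.254 from 9.453 and 9.801, percentile 73.8) and 3443 bp with T3 (chr1:50968024-50971466, 40.701 from 20.180 and 20.521, percentile 99.6). Both libraries of each list gave nearly equal values there. Beyond the gene, PBRM1 had 23.220 with vehicle (chr1:50976588-50978651) and 28.101 with T3 (chr1:50977079-50979240). Library values were uneven there, 8.480 and 14.740 with vehicle and 18.566 and 9.535 with T3. The vehicle region had an IDR of 0.0418. BRG1 overlapped both places in both conditions, with 38.154 (percentile 97.2) beyond the gene with vehicle and 13.019 (percentile 59.8) with T3. With 3 merged sites, each in 5 or 6 lists, the locus had the fewest sites, and 0 were in 1 list alone.

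CDKN2D (p19) had the highest TRβ region of the 6 loci. The T3 region chr19:10565642-10569455, 3814 bp long, covered the whole gene and its start. It also covered the annotated start of KRI1, at 10566010, so position does not assign it to CDKN2D alone. Its signal value was 37.865, 16th of 7208, from 21.585 and 16.280, which stood at percentiles 99.9 and 99.5 in the 2 libraries, and its IDR was 1e-05. The nearest vehicle TRβ region was 104.5 kb away. Over the start, BRG1 had 26.588 with vehicle (percentile 90.4) and 33.045 with T3 (percentile 96.6), and ARID1A had 22.325 (percentile 96.9) and 16.294 (percentile 81.7). PBRM1 was lower in its lists over the start: 17.871 with vehicle (chr19:10568201-10569716, percentile 67.8) and 10.183 with T3 (chr19:10568178-10569404, percentile 25.7). The TRβ region also overlapped PBRM1 T3 regions at chr19:10565536-10566491 (18.149, percentile 81.7) and chr19:10566622-10567566 (11.908, percentile 47.1). The merged stretch chr19:10565307-10570443 was in 7 lists, all except TRβ with vehicle. At CDKN2C PBRM1 stood high in its T3 list and no TRβ region was present. PBRM1 T3 regions that overlapped a TRβ region also stood high at CDKN1B (percentile 99.7), the ARF start (99.5) and CDKN1C (96.4). At the CDKN1A and CDKN2B starts they stood at 79.6 and 81.1.

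**Figure D3:**
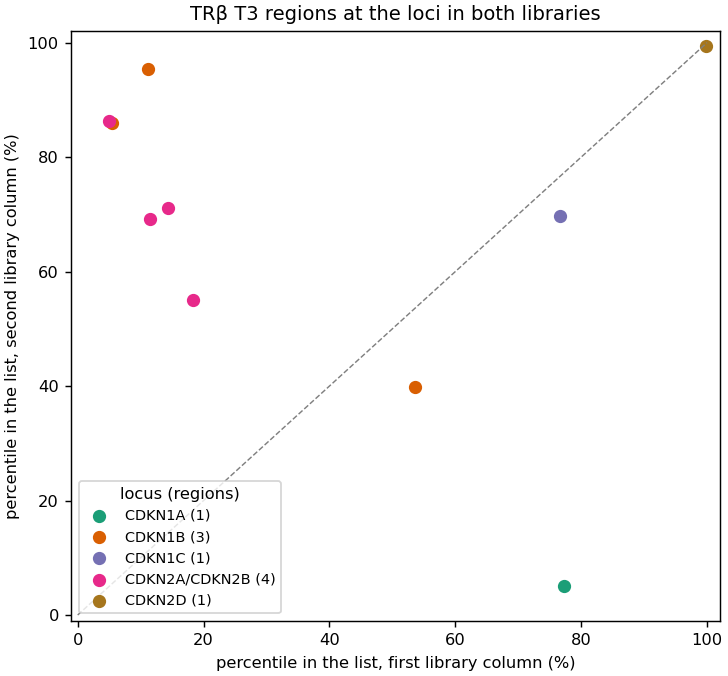
Each of the 10 TRβ T3 regions at the loci by its percentile within the T3 list in the first (x axis, %) and second (y axis, %) library column, coloured by locus, with a dashed line of equal percentiles. The CDKN2D region is at the upper right, and the 4 CDKN2A/CDKN2B regions lie above the line.

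The 10 TRβ T3 regions can be set beside the remodelers. Of these, 9 overlapped a BRG1 region with vehicle and 9 with T3 (90.0%, exact 95% binomial interval 55.5% to 99.7%), compared with 70.5% and 68.2% of all 7208. ARID1A regions overlapped 8 with vehicle (80.0%, 44.4% to 97.5%) and 7 with T3 (70.0%, 34.8% to 93.3%), compared with 65.0% and 66.3%. PBRM1 regions overlapped 1 with vehicle, the CDKN2D region (10.0%, 0.253% to 44.5%), and 9 with T3, compared with 23.0% and 62.4%. Regions of all 3 remodelers with T3 overlapped 7 of the 10, and 53.7% of the whole list. The region beyond the lower end of CDKN2A overlapped none. When the overlap had to be 50% of both regions, 1 of the 10 overlapped BRG1 in either condition or PBRM1 with T3 (10.0%), compared with 24.4% (BRG1 vehicle), 23.6% (BRG1 T3) and 27.7% (PBRM1 T3) of all 7208. At an overlap of 1 bp, every whole-list share lies inside the interval of its count at these loci. Intervals cover counting error only, and neighbouring regions are not independent.

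Presence in 1 condition was compared with the whole lists in the same way. Of the TRβ regions with T3, 9 of 10 had no overlapping vehicle region (90.0%, interval 55.5% to 99.7%), and 93.0% of the list. The 1 vehicle region was shared, so 0 of 1 was in that condition alone, compared with 67.1% of the list. For PBRM1 with T3 it was 27 of 32 (84.4%, 67.2% to 94.7%), compared with 79.2%. With vehicle, 0 of 4 PBRM1 regions lacked a T3 counterpart, compared with 24.9%. This was 2 of 4 in lists of equal length and 6 of 14 in windows of 100 kb. For BRG1, 15 of 54 vehicle regions (27.8%, 16.5% to 41.6%) and 5 of 38 T3 regions (13.2%, 4.41% to 28.1%) were in 1 condition alone, compared with 29.3% and 23.3%. For ARID1A, 8 of 26 (30.8%, 14.3% to 51.8%) and 7 of 24 (29.2%, 12.6% to 51.1%) were, compared with 51.6% and 46.5%. Every whole-list share lay inside the interval of its count at the loci.

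**Figure D4:**
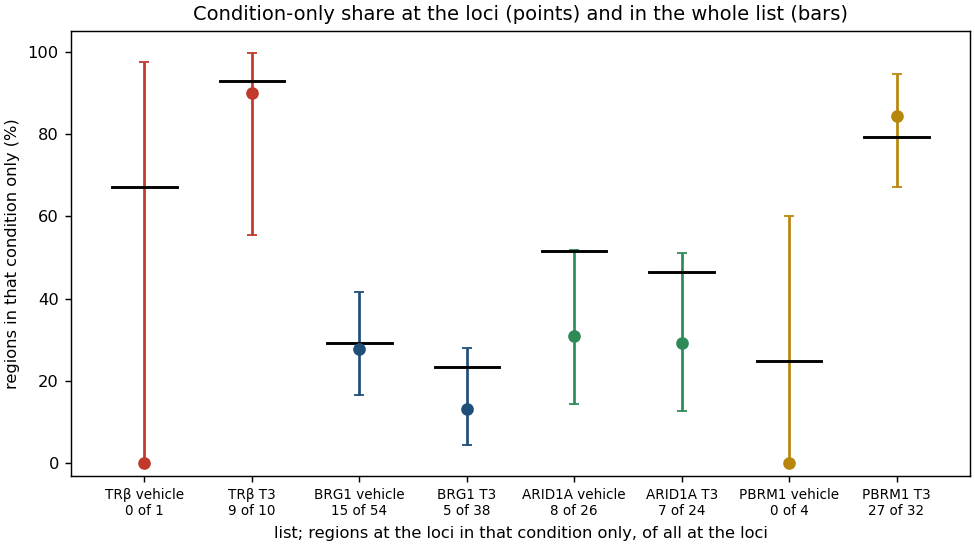
Percent of regions at the loci without an overlapping region in the other condition (y axis; points, with exact 95% binomial intervals as vertical lines), beside the same share over the whole list (black horizontal lines), for each list (x axis). The intervals are wide, and each holds the whole-list share.

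Strong and weak regions were both present at the loci. Above percentile 90 of their lists by signal value stood 8 of 54 BRG1 regions with vehicle, 5 of 38 with T3, 4 of 26 ARID1A regions with vehicle, 1 of 24 with T3, and 1 of 10 TRβ regions with T3, that of CDKN2D. For PBRM1 these were 0 of 4 with vehicle and 7 of 32 with T3. Of those 7, at CDKN1B, CDKN1C, CDKN2A and CDKN2C, 5 had no vehicle counterpart (interval 29.0% to 96.3%), and the 2 that did were at CDKN2C. Over the whole PBRM1 T3 list, 53.0% of the regions above percentile 90 had none.

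**Figure D5:**
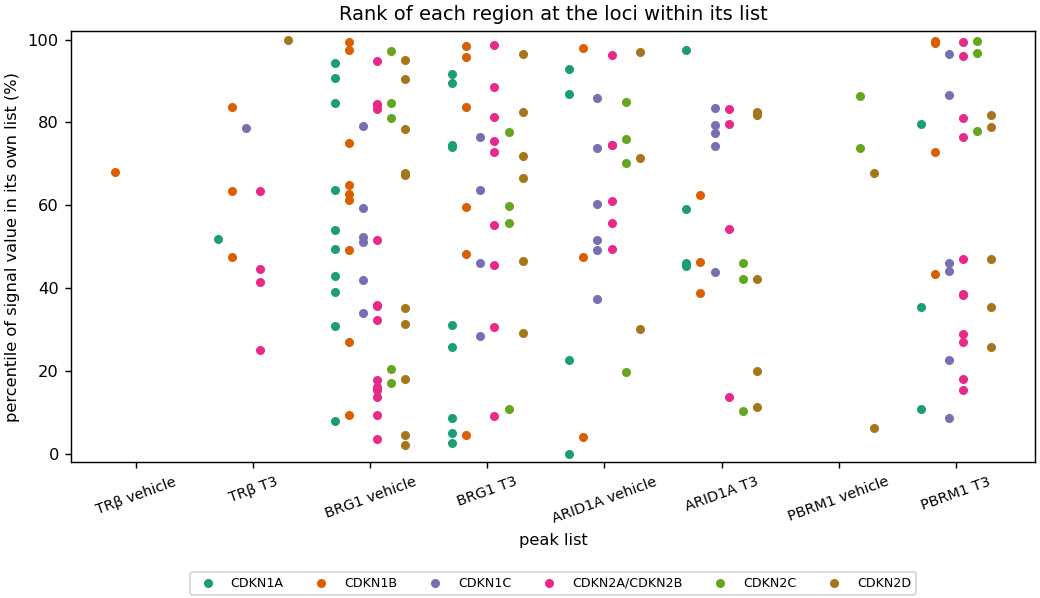
Percentile of each region's signal value within its own list (y axis, %) for the 8 lists (x axis), coloured by locus. In the PBRM1 T3 list, regions of CDKN1B, CDKN1C, CDKN2A/CDKN2B and CDKN2C are above percentile 90, and in the TRβ T3 list only that of CDKN2D is.

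Merging all lists gave 53 sites, of which 20 were in 1 list, 11 in 5 or more and 0 in all 8. BRG1 was present in both conditions at 26 sites. PBRM1 was present with T3 and not with vehicle at 21, of which 9 were at CDKN2A/CDKN2B and 6 at CDKN1C. BRG1, ARID1A and PBRM1 met at 10 sites with T3, at least 1 at each locus, and at 3 with vehicle, all of them at CDKN2C and CDKN2D. TRβ with T3 was at 7 sites. Merged sites were not counted over the whole genome, so these numbers have no share to be read against. The PBRM1 list was longer with T3 (38140 regions) than with vehicle (9115). Of all its T3 regions, 79.2% had no vehicle counterpart, and a difference between conditions was not tested.

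The pattern of presence over the 8 lists was the same for CDKN1A, CDKN1C, CDKN2A and CDKN2B, and 9.39% of protein-coding genes shared it. That of CDKN1B, with TRβ in both conditions and PBRM1 with T3 alone, was rarer, at 2.10% of genes. The patterns of CDKN2C and CDKN2D were those of 14.2% and 18.5%. In number of TRβ T3 regions, 3.61% of genes had at least as many as CDKN2A, 7.56% as CDKN1B and CDKN2B, and 39.3% as CDKN1A, CDKN1C and CDKN2D. CDKN2A and CDKN2B are taken here as separate genes, but their windows overlap, so regions in both windows count for both. In BRG1 vehicle regions the share ran from 5.46% (CDKN2A) to 38.4% (CDKN2C), and in PBRM1 T3 regions from 4.99% (CDKN2A) to 40.2% (CDKN1A and CDKN2C). In ARID1A regions it ran from 24.2% to 48.3% with vehicle and from 26.3% to 42.7% with T3. Longer genes have longer windows, so these counts are not per length.

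The 24 pathway genes, chosen around the action and turnover of CDK inhibitors, were counted in the same windows. They were cyclins, CDKs, pocket proteins, E2F factors, ubiquitin ligase parts and a phosphatase, chosen with earlier results of these data known. TRβ regions were near 6 with vehicle and 16 with T3, PBRM1 regions near 20 and 24, and BRG1 and ARID1A regions near all 24 in both conditions. Over all protein-coding genes these shares were 11.1% and 39.3% for TRβ, 44.0% and 78.1% for PBRM1, and 76.0% to 82.8% for BRG1 and ARID1A. The highest TRβ T3 signal values were 27.527 at CKS1B, the cofactor that helps SKP2 recognise p27, and 17.066 near CCNE1 (cyclin E1). Next came 16.280 at E2F1 and 15.891 at CUL4A, a ubiquitin ligase scaffold. All 4 were below the 37.865 of CDKN2D. The CCNE1 region, chr19:29844352-29845451, lay outside the gene, which ends at 29824312, so position does not assign it to CCNE1. With T3, 8 of the 24 had no TRβ region, among them RB1 and CCND1 (cyclin D1).

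By summed difference in number of regions over the 8 lists, the pathway gene most like CDKN2C was CDK7, the CDK-activating kinase, at 3, followed by CCND1 at 4, and neither had a TRβ region. CDK2 was nearest to CDKN1B, at 8, and to CDKN1A, at 10. For CDKN1C, DDB1 and RBL1 were nearest, both at 9, and for CDKN2D, CCND1 and CDK2, both at 11. The CDKN2A/CDKN2B locus was least like any of them, at 17 from E2F2 and 18 from CDK4. Nothing about shared function follows from this measure.

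Edges of the 25 kb window mattered at CDKN1C, where the nearest regions were 24.61 kb away inside it (ARID1A vehicle, signal value 9.640) and 25.02 kb away outside it (PBRM1 T3, 8.450). The thyroid genes PAX8, TG and NKX2-1 had 20, 16 and 0 BRG1 regions with vehicle and 17, 7 and 0 with T3. The lists hold no expression, so these do not check the cell type.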

How the data were processed

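The peak lists were deposited by the authors, 1 for each antibody and condition, and keep the layout of the IDR method, with the peaks common to both libraries. CASAVA 1.7, Bowtie2, Trim Galore and MACS2, and the build hg38, are listed in the submitters' processing notes without parameters. In the deposited lists the signal value is the sum of the 2 library values and a peak's interval is the union of both libraries' intervals. The score deposited by the authors rescales the IDR, and the −log10 of the IDR is a deposited column, from which rates of at most 0.05 were read. Other deposited columns, with starts, ends and ranks, describe the peaks, and 16 summit columns were not used. The order of the library columns is not tied to the replicate numbers, and no label says that replicates were separate cultures.

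Chromosomes 1 to 22, X and Y were kept, where 0 peaks overlapped another of their list. Regions sharing at least 1 bp were counted as overlapping. Positions came from RefSeq (GRCh38.p14), where all 7 genes matched by symbol, without exons. Exonic or intronic position is therefore not given. Percentiles are within a list. Exact (Clopper-Pearson) binomial intervals were used at 95%. The members and lists were chosen with earlier results of these data known. By rule, named genes were the 7 members, genes nearest to or holding a region, the 4 pathway genes with the highest TRβ T3 signal value, and for each locus the 2 most alike in region numbers. RB1, PANDAR, DINOL and KRI1 (as a start inside a region) were named after their values or positions were seen. The thyroid genes came from a separate list. Alternatives were an IDR of at most 0.01, lists of equal length, intervals of either library column, windows of 5 and 100 kb or the gene span alone, a reciprocal overlap of 50% and a tolerance of 500 bp. Overlap counting was tested on simulated lists. Software was matplotlib 3.10.9, scipy 1.17.1, pandas 2.3.3, numpy 2.4.6 and Python 3.11.15. Of the thyroid genes looked up, 1 is not reported here.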

Additional observations from a re-analysis of the deposited data

How the results depend on the processing

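Of 236 alternative values for the numbers of loci and regions and the shares of regions, 53 moved, meaning that a share left the exact 95% interval of its reported value or a count changed by over 1.5 times. The intervals are wide where regions are few, so shares could change without being counted: PBRM1 with vehicle in 1 condition went from 0% to 50% in lists of equal length and 42.9% in windows of 100 kb, TRβ with vehicle from 0% to 75.0% in windows of 100 kb, and ARID1A with T3 from 29.2% to 50% under reciprocal overlap. An IDR of at most 0.01 left 3 of 6 loci with TRβ with T3 and 0 with vehicle, and lists of equal length left 2 with T3. The number with TRβ with vehicle was 2 in windows of 100 kb and 0 in the gene span, and 4 loci had PBRM1 with vehicle in windows of 100 kb. Over all genes, the share with TRβ with vehicle was 2.22% at the strict IDR, 21.9% in windows of 100 kb and 5.06% in the gene span. The share with TRβ with T3 was 25.4% at the strict IDR and 14.1% in lists of equal length. For PBRM1 with vehicle it was 64.5% in windows of 100 kb. The T3 regions of TRβ without a vehicle counterpart made up 100% at the strict IDR and in the gene span and 50% in lists of equal length, where 2 regions were left. The share in 1 condition moved for BRG1 with T3 to 0% in the gene span and 39.5% under reciprocal overlap. For BRG1 with vehicle it was 12.5% in windows of 5 kb, 7.41% in the gene span and 57.4% under reciprocal overlap. For ARID1A it was 12.5% with T3 in windows of 5 kb and 53.8% with vehicle under reciprocal overlap. The share of TRβ T3 regions overlapping BRG1 in either condition, or PBRM1 with T3, was 10.0% under reciprocal overlap. It was 100% at the strict IDR (4 of 4), in lists of equal length (2 of 2) and in the gene span (7 of 7). The 100% values rest on these few regions, and no whole-list share was computed for them. Overlap with ARID1A was 100% in either condition in lists of equal length (2 of 2) and 30.0% with vehicle under reciprocal overlap. Overlap with PBRM1 with vehicle was 50% in lists of equal length (1 of 2) and 0% under reciprocal overlap. The intervals of either library column and the tolerance of 500 bp kept all values within these limits. The tolerance changed the share in 1 condition from 90.0% to 80.0% for TRβ with T3, from 27.8% to 16.7% for BRG1 with vehicle and from 13.2% to 7.89% for BRG1 with T3, and the overlap of TRβ T3 with ARID1A T3 from 70.0% to 80.0%. Either column's intervals gave 29.6% for BRG1 with vehicle. The number of regions at the loci at the strict IDR was 4 for TRβ with T3 and 0 with vehicle, and 20 for PBRM1 with T3 and 2 with vehicle. In lists of equal length it was 2 for TRβ and 14 for PBRM1 with T3. Windows of 5 kb left 32 BRG1 regions with vehicle. In windows of 100 kb it was 4 for TRβ with vehicle, for BRG1 128 (vehicle) and 92 (T3), for ARID1A 87 and 64, and for PBRM1 14 and 76. In the gene span it was 0 for TRβ with vehicle, 27 and 21 for BRG1, 13 and 13 for ARID1A, and 19 for PBRM1 with T3. Windows and list lengths change these counts by construction, and no other cause was tested.

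No paired analysis was possible because each combination has 1 list built from both libraries. For the same reason no replicate was left out. The TRβ T3 regions at CDKN1A, CDKN1B, CDKN2A and CDKN2B have IDR values above 0.01, except chr12:12718834-12719359 and chr12:12724872-12726278, and rest on uneven library values, except the former. Read depth is unknown.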
